A study of Caenorhabditis elegans with 4 samples.

Results

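The peaks described here are the 558 places on chromosome IV of Caenorhabditis elegans that the combined JUN-1::GFP peak list of a ChIP-seq study of first-stage (L1) larvae gives, out of 4277 peaks on all 6 chromosomes. They were chosen only by the chromosome named in each row of that list, so they make up 13.05% of it. The list of ChIP replicate 1 held 342 peaks on chromosome IV and that of ChIP replicate 2 held 557. Chromatin immunoprecipitation followed by sequencing (ChIP-seq) finds stretches of DNA that co-purify with a protein, and each such stretch is called a peak. The ChIP group consisted of 2 libraries made with a polyclonal goat antibody against GFP, and the Input group of 2 libraries of total DNA from the same kind of worms. All 4 libraries came from hermaphrodites of strain OP234, which carry the unc119(ed3) mutation and the insertion wgIs234. This insertion holds T24H10.7, the jun-1 gene, fused to TY1, EGFP and FLAG tags, together with unc119, and it was made by bombardment. Growth was at 20 degrees Celsius per the protocol, while the stage was labelled L1 26dC, and the meaning of 26dC was not resolved.

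JUN-1 belongs to the AP-1 family of basic leucine zipper transcription factors and is related to c-Jun, which in mammals pairs with Fos proteins to act on stress- and growth-responsive genes. In OP234 the protein is made from an integrated transgene that adds GFP to JUN-1, so the antibody precipitates the tagged copy and not JUN-1 from the worm's own gene. The chromatin came from whole larvae, and a peak does not tell in which cells the protein was bound. Worm autosomes have a centre rich in widely expressed, conserved genes, flanked by arms that recombine more often and hold more repeats. Chromosome IV is also known for carrying most of the worm's piRNA genes, in broad clusters.

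Positions are those of WormBase build WS180, as the peak lists give them, and no genome of that build was used, so genes, exons and sequence at the peaks were not analysed here. The strength of a peak is the q-value that the authors' peak caller gave it, written as q or as -log10 q, where a higher -log10 q means a stronger peak. Read depth was unknown for every library, and q-values depend on depth, so levels of strength are not comparable between lists. Worms without the tag were not analysed here. Nothing in the labels says that the ChIP replicates came from separate cultures. Intervals in brackets after shares are 95% exact Clopper-Pearson intervals, which cover counting error only. Peaks are not independent replicates, and with 2 ChIP libraries no test over samples was possible, so no difference below carries a p-value.

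The strongest peak on chromosome IV stood far above all others on the chromosome. It lay in the right arm at IV:14032434-14034702, was 2269 bp wide and had q = 1.6e-139, rank 12 of the whole combined list. In replicate 1 the same place had q = 1.0e-77 and in replicate 2 q = 1.6e-139, and it ranked first on chromosome IV in both. Its -log10 q of 138.8 was 2.21 times that of the next peak in the combined list, while the peaks from rank 2 to rank 15 spanned 24.4 units of -log10 q.

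That second peak was IV:8431193-8433148, 1956 bp wide, near the middle of the chromosome, with q = 1.6e-63 in the combined list. It ranked 3 in replicate 1, with q = 1.0e-37. The third was IV:10935179-10936534, with q = 3.4e-57 in the combined list and 9.5e-36 in replicate 1. The fourth, IV:4749775-4750313, had equal edges in each of the 3 lists and ranked second in replicate 1, with q = 1.2e-40 there and 6.7e-56 in the combined list. The peak IV:654721-655135 followed with 9.8e-56, and IV:17249664-17250257, close to the right end of the chromosome, with 1.3e-54. Peaks of similar strength thus lay at both ends and in the middle.

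The other 9 of the 15 strongest combined peaks had q from 3.4e-52 to 3.8e-39. In order of strength they were IV:1094094-1094558, IV:2601937-2603031, IV:3988617-3989015, IV:3050243-3051072, IV:11592901-11594674, IV:2219153-2219945, IV:3899834-3900222, IV:15646342-15646991 and IV:13240355-13240862. Each of the 15 overlapped exactly 1 replicate 1 peak, and 14 of them ranked among the 15 strongest on chromosome IV there. The exception was IV:3899834-3900222, at rank 17. Widths among the 15 ran from 389 to 2269 bp with a median of 650 bp, and 4 were narrower than 500 bp. Within 5000 bp, 8 of the 15 had no other combined peak.

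Chromosome IV held a somewhat smaller share of the very strongest peaks than of all peaks, a difference within counting error for the 100 strongest. It held 7 of the 100 strongest combined peaks, 7% (2.86 to 13.9), and 50 of the 500 strongest, 10% (7.51 to 13.0), against its 13.05% of the whole combined list. Replicate 1 had 11 of 100 (5.62 to 18.8) and 65 of 500, against 14.4% of that list. In both lists the interval for the 100 strongest peaks held the chromosome's share of the list, and for the 500 strongest it did so in replicate 1 (10.2 to 16.3) and ended just under it in the combined list. The shortfall among the 100 strongest combined peaks was not particular to IV. Chromosome X held 41 of them, with 18.07% of the list. I, II and V, with 8, 7 and 22, were below their shares of 13.35%, 10.12% and 32.73%. III, with 15, was above its 12.67%. The typical peak of chromosome IV was not weak in the combined list, where its median -log10 q of 6.85 compares with 5.91 to 6.74 on the other chromosomes. In replicate 1 the median was 6.05, against 5.98 to 6.31 elsewhere, so the combined order was not found there.

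Along the chromosome the peaks were most numerous in the centre and fewest towards the right end. The chromosome was taken to run from its first to its last peak over all lists, IV:51159-17470490, and its centre as the middle 50% of that span, with an arm of 25% on each side. In the combined list the left arm held 150 peaks, or 34.4 per Mb, the centre 328, or 37.7 per Mb, and the right arm 80, or 18.4 per Mb. The centre thus held 58.8% of the peaks (54.6 to 62.9), where the centres of all 6 chromosomes together held 59.5% of all combined peaks. In replicate 1 the left arm had 21.8 peaks per Mb, the centre 21.6 and the right arm 13.5, so left arm and centre were equally dense there and the right arm was again the sparse part.

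The left arm of chromosome IV held 65.2% of its combined arm peaks (58.7 to 71.4), a density 1.88 times that of the right arm. Replicate 1 gave a ratio of 1.61 and a left share of 61.7% (53.5 to 69.4). On the other 5 chromosomes the combined ratio of left to right was 0.578 on II, 0.801 on III, 0.88 on X, 0.965 on I and 1.37 on V. In replicate 1 it was 0.552 on II and 1.15 on V. The left-to-right ratio was thus highest on IV in both lists, but II was unequal in the other direction, and without regard to side its arms differed more than those of IV in replicate 1 and less in the combined list. Whether IV differs from the others beyond chance was not tested.

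**Figure D1:**
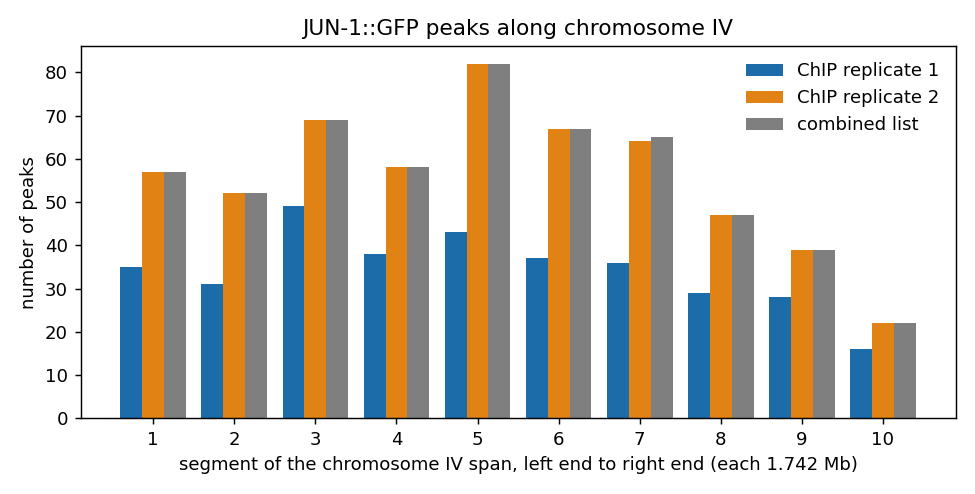
Number of JUN-1::GFP peaks (vertical axis) in each of 10 equal segments of the chromosome IV span from left end to right end (horizontal axis, each segment 1.742 Mb), for ChIP replicate 1, ChIP replicate 2 and the combined list. The combined count is 82 in the fifth segment and 22 in the segment at the right end, where replicate 1 has 16.

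The 10 segments showed the decline in more detail. Combined counts from left to right were 57, 52, 69 and 58 in the first 4 segments, then 82, 67 and 65, and then 47, 39 and 22. Replicate 1 counts were 35, 31, 49 and 38, then 43, 37 and 36, and then 29, 28 and 16. Both series ended at their lowest value, but replicate 1 had its highest count in the third segment and not in the fifth. In windows of 1 Mb, the most combined peaks lay in IV:8000001-9000000 with 53, in IV:4000001-5000000 with 48 and in IV:11000001-12000000 with 47. The fewest lay in IV:17000001-18000000 with 9, a window the span covers only in part, in IV:15000001-16000000 with 11 and in IV:16000001-17000000 with 13.

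The right arm held most of the longest empty stretches. Of the 10 longest gaps between neighbouring combined peaks on chromosome IV, 6 were in the right arm. The longest was IV:15697093-16180660, 483568 bp, followed by IV:15039894-15471332, IV:13395679-13777508, IV:4750314-5089701 and IV:14071561-14326798. Of these 5, the fourth lay in the chromosome centre and begins at the edge of the fourth strongest peak. No replicate 1 or replicate 2 peak had its midpoint in any of the 10 gaps. For replicate 2 this follows from the lists, since its peaks around these gaps are those of the combined list. For replicate 1 it adds little, since 341 of its 342 peaks on IV overlapped a replicate 2 peak.

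Gaps over 100 kb were counted where they lay wholly inside a part. In the combined list they took up 24.8% of the left arm, 18.3% of the centre and 60% of the right arm. In replicate 1, with fewer peaks and thus longer gaps, they took up 42.9%, 47.1% and 64.9%. On the other chromosomes such gaps filled between 10.7% and 53.5% of an arm in the combined list. In replicate 1, however, the left arms of I and II, with 76.5% and 70.9%, were above the right arm of IV. The median gap was similar in all parts of chromosome IV, at 18252 bp in the left arm, 15076 bp in the centre and 18664 bp in the right arm. Outside gaps over 100 kb, combined density was 45.8 peaks per Mb in the left arm, 46.1 in the centre and 45.9 in the right arm, and in replicate 1 it was 38.2, 40.8 and 38.5. This evenness depends on the gap length chosen and on the gaps counted. A combined gap of 141403 bp ends at the peak IV:13240355-13240862 and crosses from the centre into the right arm, so it was not counted. Leaving it out as well would raise the right arm density above the value given, by an amount not computed. With gaps over 50 kb left out the combined densities were 74.1, 72.1 and 90.9, and with gaps over 200 kb left out 34.4, 39.2 and 30.8.

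Over the whole chromosome the median gap between neighbouring combined peaks was 16390 bp, with quartiles of 3955 and 40738 bp. On the other 5 chromosomes pooled it was 9716 bp. Taken singly it was 5677 bp on V, 11139.5 bp on X, 12680.5 bp on I, 13873 bp on III and 18783 bp on II. On IV the median was 28131 bp in replicate 1 and 16492 bp in replicate 2. No gap in any of the lists on chromosome IV was shorter than 204 bp. Many peaks nevertheless had a close neighbour. With peaks less than 5000 bp apart counted as a group, 266 of the 558 combined peaks, or 47.7%, lay in groups, and 292 stood alone. In replicate 1 it was 133 of 342, or 38.9%. Close neighbours were not particular to IV. Gaps under 5000 bp made up 29.3% of combined gaps on IV, against 36% on the other 5 chromosomes together. Taken singly, those 5 ran from 23.8% on II to 48.0% on V. Grouped and single combined peaks were of equal median strength, with a -log10 q of 6.86 and 6.85, and grouped ones were wider, with medians of 420.5 and 368 bp.

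The largest groups held 7 peaks each, and they differed in make-up. The group at IV:14609711-14624475, in the right arm, was 14765 bp long, and its peaks covered 8314 bp of it. It contains the widest peak of the chromosome, IV:14619473-14623209, 3737 bp, whose q of 3.0e-12 gave it only rank 136 on chromosome IV. In replicate 1 this place had a peak of less width, IV:14619757-14621571, with q = 9.9e-08. Of the 7 peaks, 6 overlapped both replicates. The group at IV:4397155-4407468 lies across the border between left arm and centre, and 4 of its 7 peaks overlapped both replicates. Its strongest peak was IV:4400848-4401333, with q = 8.7e-13. Next in size were groups of 5 at IV:4014419-4028649, where all 5 overlapped both replicates, and at IV:8527350-8532388, where 2 did. No peak of either 7-peak group was among the 100 strongest of the chromosome.

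Peaks in the centre of chromosome IV were weaker than those in its arms. In the combined list median -log10 q was 6.06 in the centre, with quartiles of 4.17 and 10.6, and 7.55 in the arms, with quartiles of 4.90 and 12.7. In replicate 1 it was 5.75 in the centre and 6.49 in the arms, and in replicate 2 it was 6.06 and 7.55. The direction was the same in all lists, although the quartile ranges overlapped widely. The difference of medians, centre minus arms, was -1.49 in the combined list and -0.74 in replicate 1.

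Other chromosomes did not share one direction. In the combined list the centre minus arms difference was -1.26 on II and -0.78 on X, -0.10 on III, 0.049 on I and 0.43 on V. In replicate 1 it was -1.09 on II and -0.61 on X, while III, I and V gave 0.36, 0.44 and 0.51. Chromosomes IV, II and X were thus weaker in the centre in both lists, and V and I stronger. In replicate 2, however, the difference on I was -0.12. The combined list nearly repeats that of replicate 2, so the combined values add little to those of replicate 2. Chromosomes were not tested against each other.

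**Figure D2:**
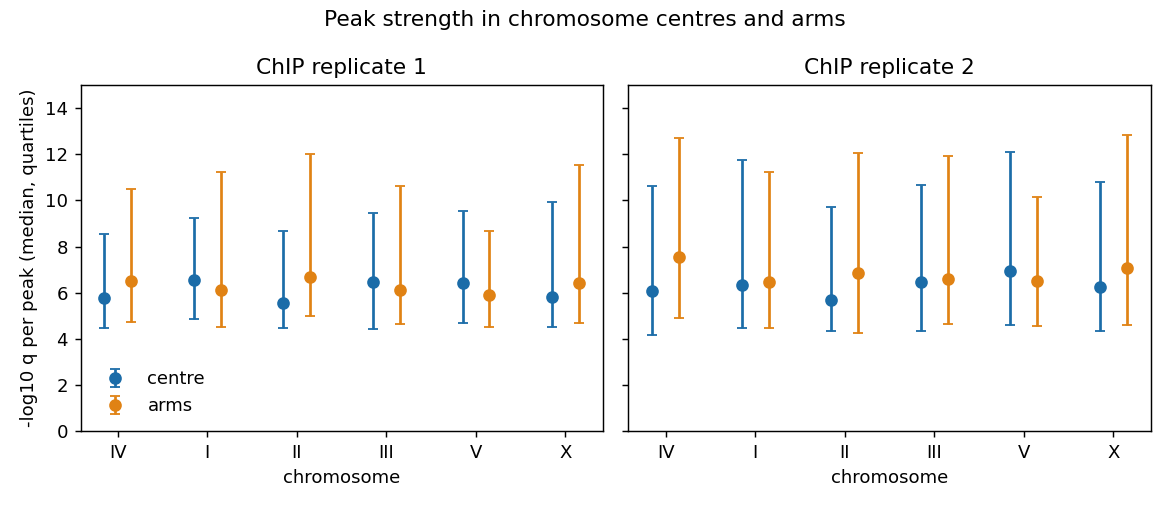
Median -log10 q per peak (vertical axis) in the centre and in the arms of each chromosome, for ChIP replicates 1 and 2, and bars from the lower to the upper quartile. On chromosome IV the centre lies below the arms in both panels, at 5.75 and 6.49 in replicate 1 and at 6.06 and 7.55 in replicate 2.

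The share of peaks in the centre changed with peak strength. From the weakest to the strongest quartile of replicate 2 peaks on chromosome IV, 69.3% (60.9 to 76.8), 61.9% (53.3 to 70.0), 54.7% (46.0 to 63.1) and 48.9% (40.4 to 57.5) lay in the centre. In replicate 1 the quartiles gave 64.0% (52.9 to 74.0), 54.1% (43.0 to 65.0), 55.8% (44.7 to 66.5) and 45.9% (35.0 to 57.0). In both lists the weakest quartile had the highest share and the strongest had the lowest, and only in replicate 2 did the intervals of these quartiles not overlap. Among the 15 strongest, 4 were in the centre in either replicate, with 6 in the left and 5 in the right arm in replicate 1, and 7 and 4 in replicate 2. On autosomes I, II, III and V together the replicate 2 shares were 63.0%, 61.2%, 61.0% and 63.8%, and the replicate 1 shares 62.0%, 58.2%, 69.3% and 58.6%. This pool joins chromosomes that differ. Taken singly, II, III and X also had a higher share in the weakest than in the strongest quartile in both replicates, and I and V a lower one. On X the quartiles gave 50.5%, 47.3%, 47.3% and 40.9% in replicate 1 and 55.2%, 52.1%, 44.3% and 46.1% in replicate 2, and on II they gave 66.1%, 62.9%, 53.2% and 50% in replicate 1. The pattern was thus not seen on IV alone.

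**Figure D3:**
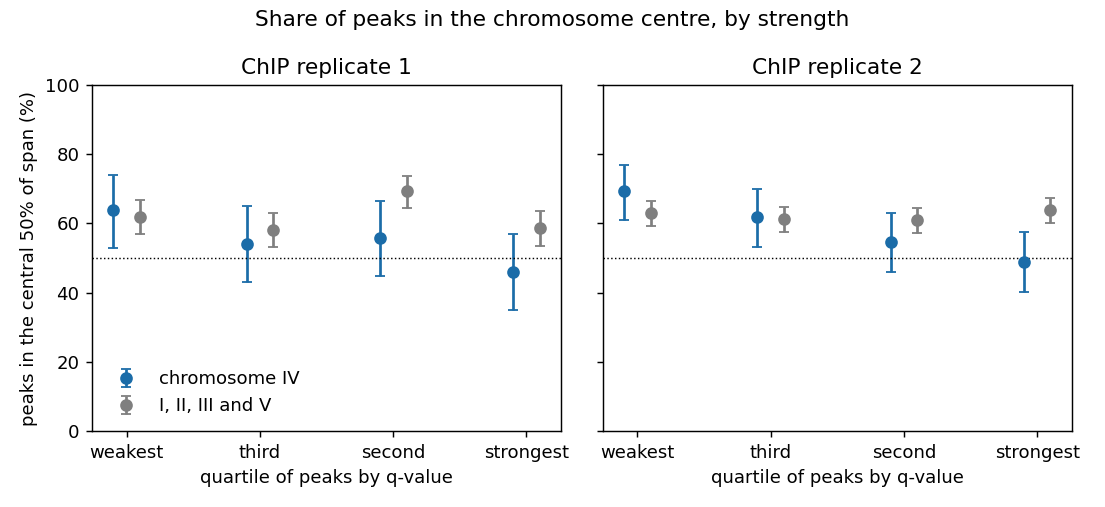
Share of peaks in the central 50% of the span (vertical axis, %) for quartiles of peaks by q-value from weakest to strongest (horizontal axis), on chromosome IV and on autosomes I, II, III and V together, with 95% exact intervals, in ChIP replicates 1 and 2. On chromosome IV the share is 69.3% in the weakest and 48.9% in the strongest replicate 2 quartile, and the dotted line marks 50%.

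Local values followed this pattern only in part. In the combined list median -log10 q was lowest in the fifth segment of the span, at 5.43, the segment with the most peaks, and it was 5.98 in the sixth. It was 8.06 in the second segment and 8.04 in the ninth. Replicate 1 gave medians of 5.33 in the fifth segment and 5.26 in the sixth, and 8.31 in the second and 6.73 in the ninth. The middle segments were thus the weakest in the combined list, and among the lowest in replicate 1, where the fourth segment gave 5.32. The seventh segment, also in the centre, went the other way, with 7.19 in the combined list and 6.84 in replicate 1, above the 6.91 and 5.76 of the first segment, in the left arm. The 1 Mb window with the most peaks, IV:8000001-9000000, had a median of 5.33 and contained the second strongest peak of the chromosome. Its peaks were also narrow, with a median of 334 bp.

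Width went with strength. Median width was 381 bp in the combined list, with quartiles of 311 and 536.5 bp, 383 bp in replicate 1 and 382 bp in replicate 2. On the other 5 chromosomes together the combined median was 346 bp, and chromosome V, with 282 bp, was the narrow one there. On I, II, III and X the medians ran from 369.5 to 395 bp, so that of IV lay within their range. From the weakest to the strongest quartile of combined peaks on IV the median width was 313.5, 351, 408 and 522 bp, and in replicate 1 it was 309.5, 368, 409 and 486 bp. All 22 combined peaks of 1000 bp or more were in the 2 stronger quartiles. Spearman's rho between width and -log10 q was 0.52 across the 558 combined peaks and 0.49 across the 342 of replicate 1. These describe the peaks of a list, which share a library. On I, II, III and X the same rho was 0.47 to 0.65 in the combined list, and on V it was 0.85.

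The widest combined peaks after IV:14619473-14623209 and the strongest peak were IV:3232626-3234688 with 2063 bp, IV:8431193-8433148 with 1956 bp and IV:5752793-5754627 with 1835 bp. The last of these covered 2 replicate 1 peaks, IV:5753063-5753662 with q = 1.1e-04 and IV:5753905-5754586 with q = 3.2e-15. Replicate 1 had 0 peaks under 50 bp on every chromosome. In the combined list such peaks made up 0.175% to 0.693% on I, II, III and X, and 3.21% on V. On IV there were 4 combined peaks under 50 bp, or 0.717%. The narrowest were IV:11295032-11295041 with 10 bp, IV:5722164-5722192 with 29 bp and IV:1550792-1550823 with 32 bp. All of these narrow peaks were weak, with q of 1.4e-04 or 2.4e-04, and none overlapped a replicate 1 peak.

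Most chromosome IV peaks were found in the lists of both ChIP replicates. The sources used here do not say whether the list named for replicate 2 was made from that library alone, so recovery and the agreement of paired peaks describe the lists and may not compare separate libraries. Overlap was counted from 1 bp. Both replicates had a peak at 338 of the 558 combined peaks, or 60.6% (56.4 to 64.6), where 54.3% of all combined peaks had one in both. A further 218 overlapped replicate 2 alone, 1 replicate 1 alone and 1 neither. Of the 557 replicate 2 peaks on IV, 338 were found in replicate 1, or 60.7%, against 54.4% of the whole list. In the other direction 341 of 342 replicate 1 peaks on IV were found in replicate 2, where 99.5% of that whole list were. In the combined list the share on III was 60.5% (56.3 to 64.7), so it was alike on III and IV, while I had 37.8% (33.8 to 41.9).

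Recovery rose steeply with strength. From the weakest to the strongest quartile of replicate 2 peaks on IV, 6.43%, 44.6%, 92.1% and 100% were found in replicate 1. Peaks found again had a median -log10 q of 9.87 in replicate 2, and those not found 4.20. Each of the 177 strongest replicate 2 peaks on chromosome IV was found. The first not found was IV:11623001-11623326, rank 178, with q = 4.5e-10. The next were IV:17087394-17087797 with q = 8.0e-10, IV:2048798-2049280 with 4.5e-09, IV:13347284-13347587 with 6.9e-09 and IV:3227521-3228174 with 1.8e-08. Of these 5, 2 lay in the right arm, 2 in the left arm and 1 in the centre. Recovery rose with width as well, at 18.2% of peaks under 250 bp and 23 of 23 peaks of 1000 bp or more. Median -log10 q in replicate 2 was 3.87 and 17.2 in these 2 classes, so width and strength rose together and were not separated.

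At equal rank in the whole replicate 2 list, recovery on IV was at or above that on chromosomes II, III, V and X together in all classes but the weakest. It was 50 of 50 on IV against 100% at ranks 1 to 500, 74 of 74 against 99.4% at ranks 501 to 1000, and 97.1% against 96.7% at ranks 1001 to 1500. At ranks 1501 to 2000 it was 90.9% (82.2 to 96.3) on IV and 83.6% (79.3 to 87.2) on the other 4, and at ranks 2001 to 3000 it was 51.6% (42.6 to 60.5) and 42.3% (38.7 to 46.0). From rank 3001 on, 6.33% were found on IV and 7.18% elsewhere. The intervals overlapped in every class. The other 4 were not taken singly by rank, and V, with 1394 replicate 2 peaks of 280.5 bp median width, was the largest of them. Median widths differed beside these shares, with 366.5 bp on IV and 302.5 bp on the other 4 at ranks 2001 to 3000, and the part of width in the recovery was not tested. Chromosome I, with its low recovery in replicate 1, was left out of this comparison. With it the shares elsewhere were lower, 77.3% (73.0 to 81.2) and 36.7% (33.5 to 40.0) in those same rank classes, and there the intervals did not overlap those of IV.

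**Figure D4:**
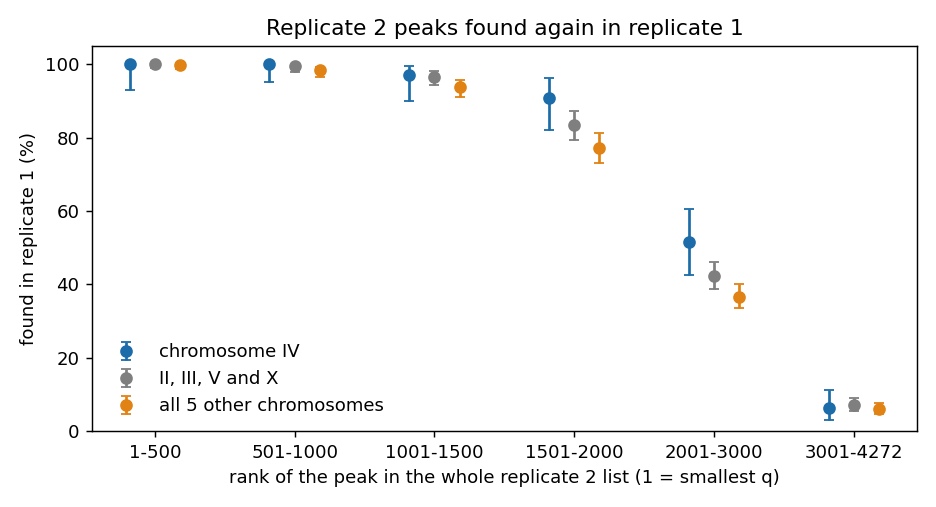
Share of replicate 2 peaks found in replicate 1 by an overlap of at least 1 bp (vertical axis, %) against rank class in the whole replicate 2 list (horizontal axis, 1 is the smallest q), for chromosome IV, for II, III, V and X together and for all 5 other chromosomes, with 95% exact intervals. Recovery on IV is 90.9% at ranks 1501 to 2000 and 51.6% at ranks 2001 to 3000, and 6.33% beyond.

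Recovery was higher in the arms of chromosome IV than in its centre, as strength was, but the intervals overlapped. Of replicate 2 peaks, 56.3% (50.7 to 61.7) were found in the centre and 67.0% (60.5 to 73.0) in the arms. The left arm gave 64.0% and the right arm 72.5% (61.4 to 81.9). The arms were also higher on II (59.2% against 53.3% in the centre), III (62.8% against 59.15%) and X (59.2% against 53%). On I they were near equal to the centre (38.3% against 37.5%), and on V they were lower (54.0% against 55.4%). At equal rank the parts of IV were close. At ranks 1501 to 2000, 35 of 38 were found in the centre and 35 of 39 in the arms. At ranks 2001 to 3000 it was 50.6% (39.4 to 61.8) in the centre and 53.3% (37.9 to 68.3) in the arms. Grouped replicate 2 peaks were found in 62.3% of cases and single ones in 59.2%, with overlapping intervals of 56.1 to 68.1 and 53.4 to 64.9.

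Where both replicates had a peak, its midpoint usually lay within 50 bp in the other list, among pairs that overlap by definition. On chromosome IV 333 peaks overlapped one to one. The distance between their midpoints had a median of 11.5 bp, with quartiles of 4 and 25.5 bp, and in 289 pairs, or 86.8%, it was at most 50 bp. The largest distance was 677 bp, and 28 pairs were over 100 bp apart. The replicate 1 peak was usually the narrower of the pair. Its width was 0.91 times that of the replicate 2 peak in the median, and in 254 pairs, or 76.3%, it lay wholly inside it. Start and end were equal in 5 pairs.

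Strength was ranked alike in the pairs, and replicate 1 gave the lower values. The Spearman rho of -log10 q over the 333 pairs was 0.93 and Pearson's r 0.98, which describe the peaks of these lists. With depth unknown, this difference in level cannot be told apart from one in read number. Replicate 1 was lower in 326 pairs and higher in 7. As a log2 ratio of replicate 1 to replicate 2, -log10 q had a median of -0.64, with quartiles of -0.79 and -0.47, against -0.69 on II, III, V and X together. It was -0.65 in the left arm, -0.64 in the centre and -0.60 in the right arm, so the parts of the chromosome differed by less than the quartile range. In quartiles of the paired peaks by replicate 2 strength, from weakest to strongest, it was -0.48, -0.64, -0.72 and -0.66. Replicate 2 strength is also the denominator of the ratio, and a pair needs a replicate 1 peak. Weak replicate 2 peaks thus enter mainly where replicate 1 is relatively high, so these quartiles cannot show whether the ratio changes with strength. The lowest ratio was -1.18, at IV:13346029-13346366, where q was 6.5e-06 in replicate 1 and 1.6e-12 in replicate 2. The next lowest were at IV:6645912-6646367 with -1.18 and IV:8782131-8782526 with -1.16. The highest was 0.27 at IV:8136136-8136566, where q was 4.1e-06 in replicate 1 and 3.3e-05 in replicate 2, followed by IV:15530597-15530820 with 0.21 and IV:14763290-14763529 with 0.11. These 3 pairs were weak in both lists.

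**Figure D5:**
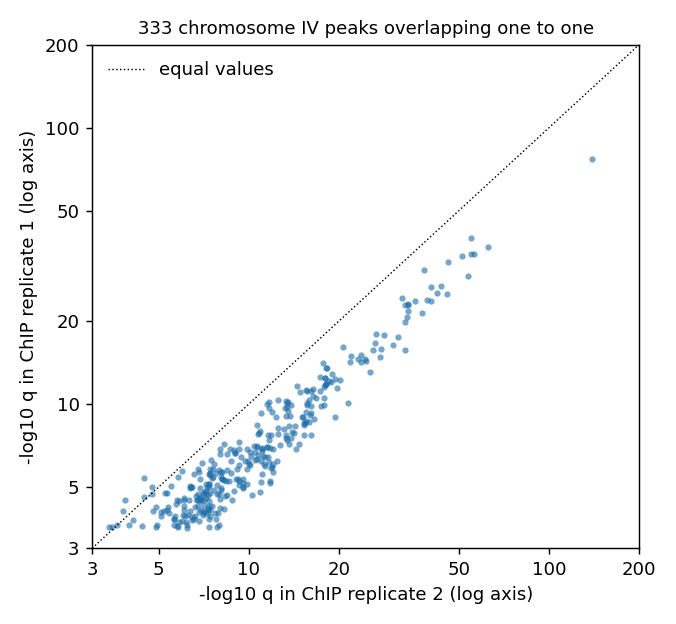
Values of -log10 q in ChIP replicate 1 (vertical, log axis) against ChIP replicate 2 (horizontal, log axis) for the 333 chromosome IV peaks that overlap one to one, with a dotted line of equal values. The points follow a narrow band, 326 of them below the line, and the strongest peak stands alone at 77.0 and 138.8.

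A few places were divided differently by the lists. Besides IV:5752793-5754627, the replicate 2 peaks IV:8510589-8511385, IV:14611867-14613589 and IV:16415082-16415893 each overlapped 2 replicate 1 peaks. One replicate 1 peak, IV:14610898-14612211, joined 2 neighbouring replicate 2 peaks inside the 7-peak group of the right arm. The only replicate 1 peak on IV without a replicate 2 peak was IV:11488092-11488308, with q = 2.4e-04. It overlapped the combined peak IV:11488006-11488492, with q = 1.7e-04, the only one there that overlapped replicate 1 alone. The combined peak that overlapped neither was IV:11915769-11916043, with q = 3.1e-04.

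The combined list repeated the replicate 2 list on chromosome IV except in one window of 1 Mb. Start, end and q were equal in 511 of 558 peaks, or 91.6% (89.0 to 93.7), where 83.6% of the whole combined list were. All 47 others lay between IV:11006477 and IV:11962274, in the window IV:11000001-12000000, and outside it all 511 were identical. Replicate 2 had 46 peaks in this window. Of the 47 combined peaks, 45 overlapped 1 replicate 2 peak each, so a replicate 2 peak there also lacked a combined one. In all 45 the combined peak was the narrower one, and the larger shift of its edges had a median of 8 bp and a maximum of 51 bp. In 21 of them q was equal all the same, and -log10 q ranged from 0.92 to 1.06 times that of replicate 2. The eleventh strongest peak, IV:11592901-11594674, lies in this window, with a combined q of 1.5e-43 and a replicate 2 q of 6.2e-43. Recovery in both replicates was 25 of 47 in the window, or 53.2% (38.1 to 67.9), and 61.3% outside it. How the authors made the combined list is not given in the sources used here.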

How the data were processed

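JUN-1::GFP ChIP-seq peaks of L1 larvae were read from 3 deposited lists, 1 for each ChIP replicate and 1 named combined. Crosslinking used 2% formaldehyde, stopped by 100 mM Tris, and 10% of the chromatin served as input, per the labels' protocols. Peaks were called with PeakSeq on WormBase WS180, per the file headers and source columns. The only value of each peak is the authors' deposited q-value, and -log10 q was computed from it. The PeakSeq version, aligner, thresholds, use of the inputs and way of combining: not given in the sources used here. Depth is unknown. The inputs have no list used here. Rows naming chromosome IV were kept, and the other chromosomes were treated alike for comparison.

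Named peaks followed a rule: the 15 strongest, 5 widest and 3 narrowest combined peaks, the strongest ones missing from a list, the 5 longest gaps, the largest groups, the windows with most and fewest peaks and the pairs with extreme ratios. Members, lists and rules were chosen with earlier results of these data known. Gaps over 100 kb and the comparison of left with right arm were chosen after seeing the data. Overlap, grouping and interval functions were tested on simulated data. Python 3.11.15, numpy 2.4.6, pandas 2.3.3, scipy 1.17.1 and matplotlib 3.10.9 were used.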

Additional observations from a re-analysis of the deposited data

How the results depend on the processing

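Of 38 alternatives to 12 values, 14 stayed within the spread of the replicates or the interval and 24 moved, and none had a test. The list of either replicate was put in place of the combined list, which was not itself remade without a replicate. This gave 55.0% to 58.7% of peaks in the centre, 19.6 to 32.0 peaks per Mb and a median width of 382 to 383 bp. The median gap was 16492 to 28131 bp and the median -log10 q 6.05 to 6.86. The right arm had 13.5 to 18.4 peaks per Mb, and 38.5 to 45.9 outside gaps over 100 kb that lay wholly inside it. With 50 and 200 kb as the limit that density was 90.9 and 30.8. A centre as wide as each arm held 41.8% of peaks. The stronger 50% of peaks by q gave 51.6% in the centre, 16.0 per Mb, a width of 456 bp, a gap of 38914 bp, 96.1% in both replicates and 96.0% of replicate 2 peaks found, since weak peaks are left out by construction. Groups in place of peaks gave 22.7 per Mb, and leaving out peaks under 50 bp a width of 382 bp. The rho was 0.92 without the 10 strongest pairs. The median log2 ratio was -0.63 there and with a reciprocal overlap of 50%. Identity with replicate 2 was 95.3% by q alone and 97.1% with edges within 10 bp.

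No paired analysis was possible because ChIP and Input carry equal replicate numbers but peak lists of the Input libraries were not analysed here. With depth unknown, no detection limit can be given for a peak absent from replicate 1. The alternatives on the right arm were chosen after seeing the data.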
